A study of Mus musculus with 2 samples.

Results

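The genes described here are 71 autosomal genes whose transcripts were higher in XX than in XY gonadal somatic cells at every time examined. They were chosen from the measured values themselves. The counts of each library were divided by the library's total and multiplied by 1000000 (CPM), log2(CPM + 1) was taken, and a gene on chromosomes 1 to 19 was kept where the mean of 4 XX libraries exceeded that of 4 XY libraries by at least 2 at 0 h, after 24 h with DMSO and after 72 h with DMSO. The deposited counts covered 42422 genes, of which 38293 were autosomal, and 76 of these met all 3 differences. Foxl2, Runx1, Irx3, Rspo1 and Fst, which were among the 76, were left out by name, as were Foxl2os and Lgr5, which did not meet the differences. The 71 genes were 62 protein-coding genes and 9 long non-coding RNA (lncRNA) genes.

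The cells came from gonads of E12.5 mouse foetuses bred from Swiss females and 129T2svJ males with an Oct4-eGFP transgene, which labels germ cells and was used to sort them away. Gonads with their mesonephros were taken at 0 h or cultured for 24 h or 72 h, the mesonephros was removed, and the GFP-negative cells of pooled gonads gave 1 library each. There were 10 groups of 4 libraries: XX and XY cells at 0 h, XX and XY cells with DMSO (the vehicle) at 24 h and at 72 h, XY cells with 500 nM of the FGF receptor inhibitor BGJ398 (FGFRi) at 24 h and at 72 h, and XY cells with 500 nM of the MEK inhibitor PD0325901 (MEKi) at 24 h and at 72 h. All animals were wild type apart from the transgene, no XX gonad received an inhibitor, and the GFP-negative gate holds every somatic type of the gonad, with supporting, interstitial, endothelial and blood cells together. The inhibitors were added after sex determination, and the question asked of the XY libraries was how much of the ovary-biased transcript set they held when FGF receptors or MEK were blocked.

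The somatic cells of the early gonad can take either fate. In XX gonads the signals WNT4 and R-spondin 1 and the forkhead factor FOXL2 support the pre-granulosa cells, which later enclose oocytes, and in XY gonads SRY and SOX9 start the Sertoli cell programme while FGF9 opposes WNT4. MEK relays signals from FGF and other receptors to ERK, which acts on transcription factors such as ETS proteins and AP-1.

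Library totals lay between 1380707 and 4836550 counts. Xist had at least 1090 counts in each XX library and at most 14 in each XY library, and the Y-linked gene Ddx3y at most 3 and at least 65, so every library matched its labelled sex. The libraries were sequenced in 2 pools of 20, the first with both 0 h groups, both 24 h DMSO groups and the 24 h MEKi group, the second with the 24 h FGFRi group and all 72 h groups. The 24 h FGFRi libraries therefore had no DMSO libraries of their own time in their pool, and for them levels are given without a test. Of 14 tested genes that report MAPK output, such as Dusp6 and Spry4, 12 fell with MEKi at 72 h, 11 with MEKi at 24 h and 2 with FGFRi at 72 h. Summed over their 20 listed markers, pre-granulosa genes reached 2745 to 3073 CPM in XX and 700 to 790 CPM in XY DMSO libraries at 72 h, and 20 Sertoli markers reached 665 to 758 CPM in XX and 1314 to 2096 CPM in XY.

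The ovary-biased genes were abundant in XX cells and scarce, but mostly not silent, in XY cells. Their summed level was 5083 ± 250.1 CPM (SD, n = 4) in XX and 674 ± 28.6 CPM in XY cells at 0 h, 4968 ± 199 and 564 ± 26.4 CPM with DMSO at 24 h, and 3889 ± 96.0 and 512 ± 86.3 CPM with DMSO at 72 h. The XX sum was thus 7.54, 8.80 and 7.60 times the XY sum at the 3 times. These differences chose the genes and carry no test. The median difference in log2(CPM + 1) between XX and XY was 2.88 at 0 h, 3.05 at 24 h and 2.86 at 72 h, and 25, 24 and 22 genes had their largest difference at 0 h, 24 h and 72 h, respectively. In XX cells at 72 h every one of the 71 had a mean of at least 1 CPM and 51 had at least 10 CPM, whereas in XY DMSO cells 30 were below 1 CPM, 7 had no count in any of 4 libraries and 12 were at 10 CPM or more. In bulk samples such as these, fewer cells of a type and less RNA per cell cannot be told apart.

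**Figure D1:**
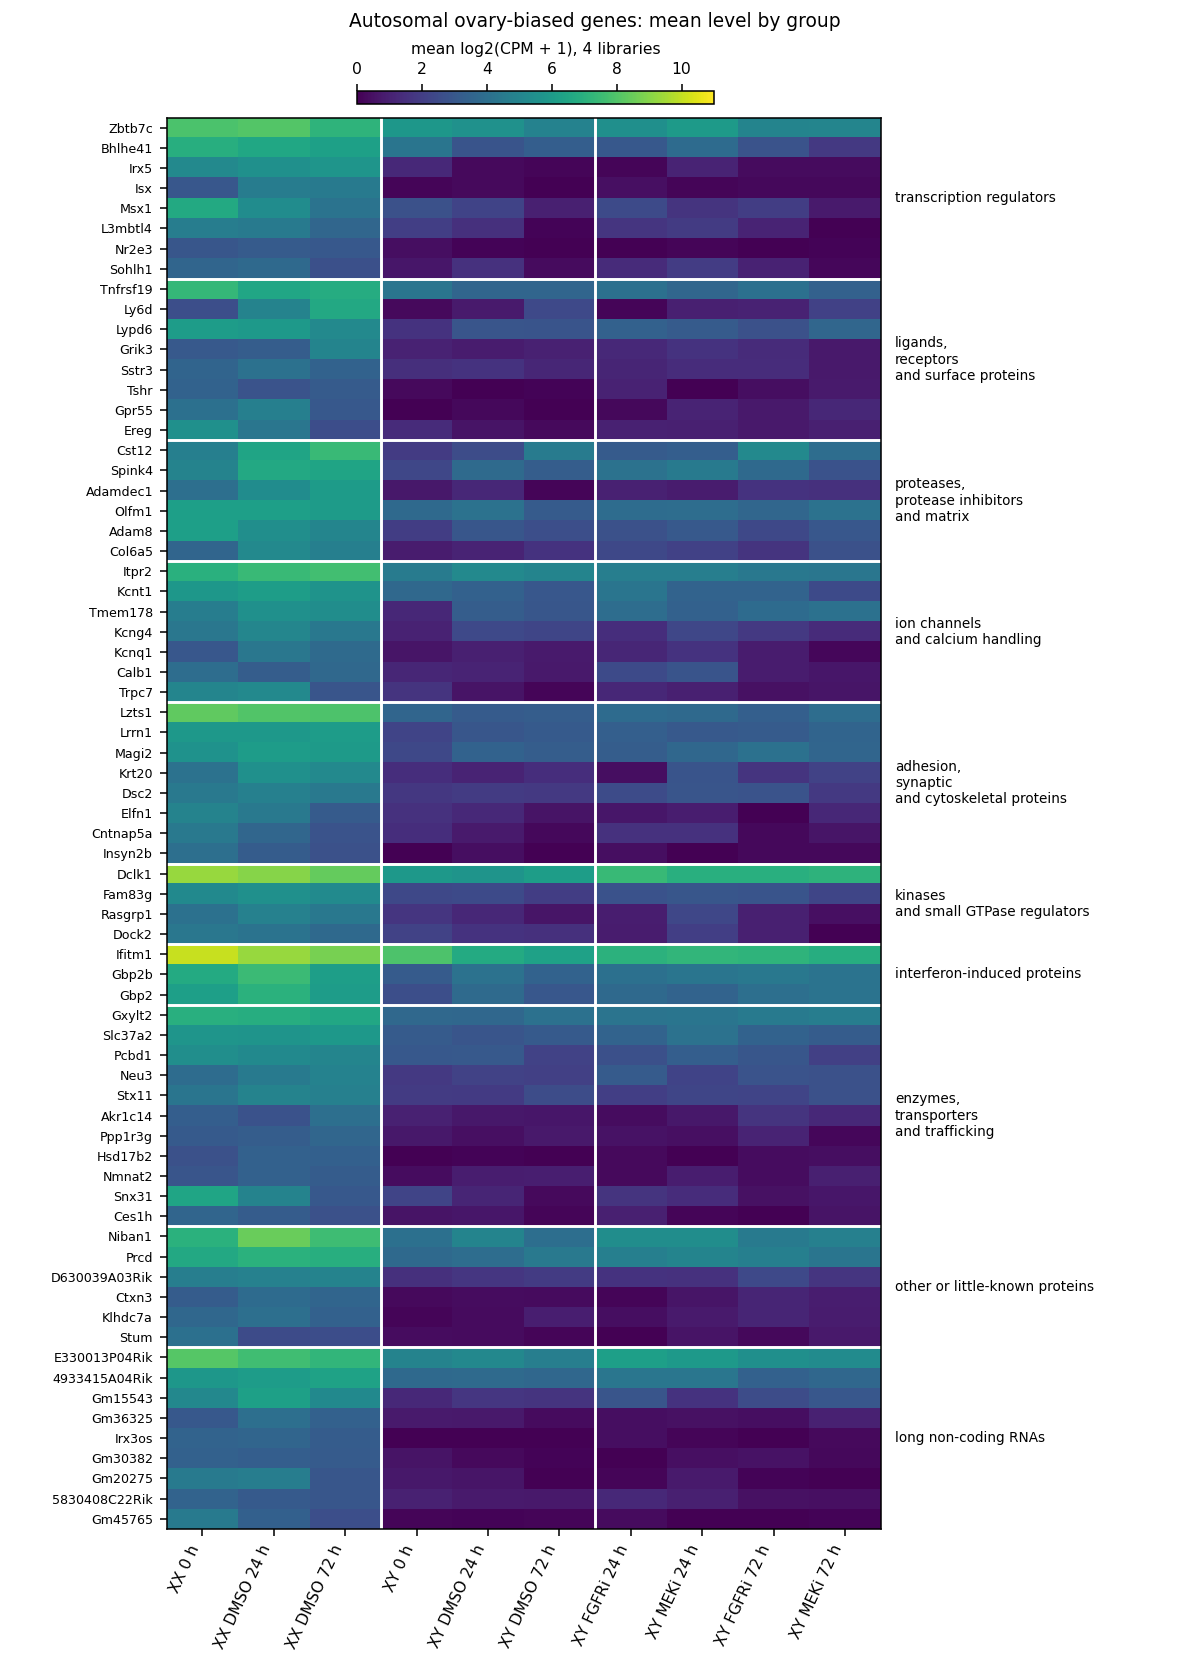
Mean log2(CPM + 1) over 4 libraries (colour) of 70 of the 71 genes (vertical axis, by function) in the 10 groups (horizontal axis). The 3 XX columns at the left are brighter than the untreated and DMSO XY columns of their own time for every gene shown, by the choice of the genes, and among XY columns with an inhibitor only a few genes such as Dclk1, Ifitm1 and Calb1 are visibly brighter than with DMSO.

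3 genes had the largest minimum difference. Lzts1 (ENSMUSG00000036306.13, chr8:69585321-69636909), whose protein is a cytoskeletal and postsynaptic scaffold, stood at 249, 265, 209.8 and 257 CPM in the XX DMSO libraries of 72 h and at 6.2, 6.0, 10.4 and 12.9 CPM in the XY DMSO libraries. Its XX minus XY difference was 4.72 at 0 h, 4.84 at 24 h and 4.70 at 72 h. Irx5 (ENSMUSG00000031737.11, chr8:93084253-93102914), a homeobox transcription factor of the Iroquois family, stood at 49.6, 52.7, 54 and 55.6 CPM in XX and 0, 0.50, 0 and 0 CPM in XY, with differences of 3.93, 5.26 and 5.61. The lncRNA Gm15543 (ENSMUSG00000086863.1, chr6:145127918-145133649) stood at 39.7, 42, 35.2 and 30.7 CPM in XX and 2.41, 2.0, 2.49 and 1.9 CPM in XY, with differences of 3.86, 4.5 and 3.56. At the other end the choice had a soft edge. Grik3, Akr1c14 and Olfm1 were kept with smallest differences of 2.01, 2.04 and 2.04, and Defb7 and Cd44 were left out at 1.97 each, while 1700003O11Rik missed by less than 0.01 (1.99975).

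By function the 71 genes were placed by hand in 10 groups. The groups are kinds of gene product and do not show whether genes share a pathway. The transcription regulators were 8: the homeobox factors Irx5, Msx1 and Isx, the circadian repressor Bhlhe41, the nuclear receptor Nr2e3 of photoreceptors, the germ cell factor Sohlh1, the zinc finger protein Zbtb7c and the chromatin protein L3mbtl4. Their means at 72 h ran from 5.43 CPM (Sohlh1) to 141 CPM (Zbtb7c) in XX cells and from 0 (Isx, with Nr2e3) to 28.6 CPM (Zbtb7c) in XY DMSO cells. Msx1, a target of BMP signalling, was high early in XX cells, at 87.6, 92, 106 and 119.7 CPM at 0 h, 36.8, 42.2, 27 and 58.6 CPM at 24 h and 12.3, 12.48, 24.1 and 22.9 CPM at 72 h. Its 3 sets of XX libraries did not overlap.

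The ligands, receptors and surface proteins were 8. They were the EGF-family ligand Ereg, the lipid receptor Gpr55, the thyrotropin receptor Tshr, the somatostatin receptor Sstr3, the TNF receptor family member Tnfrsf19, the kainate receptor subunit Grik3 and the small surface proteins Lypd6 and Ly6d. Tnfrsf19 was the highest of them in XX cells, at 124, 97, 118 and 107 CPM at 72 h against 10.3, 10.5, 13.9 and 10.0 CPM in XY. The XX mean of Ly6d was 6.35 CPM at 0 h, 29.5 CPM at 24 h and 104 CPM at 72 h. No test was run on time in XX cells, since the 72 h libraries lay in the other pool.

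Proteases, protease inhibitors and matrix proteins numbered 7, and all had at least 26.3 CPM in XX cells at 72 h. Among them Adamdec1 and Adam8 are proteases, Cst12 is a member of the cystatin family, Spink4 is a serine protease inhibitor, and Col6a5 and Olfm1 are extracellular. Cst12 (ENSMUSG00000027443.10, chr2:148631281-148635816) was the highest, at 160.2, 227, 141 and 173 CPM in XX and 22.7, 24, 24.9 and 20.5 CPM in XY DMSO libraries at 72 h. Adamdec1 showed the largest difference of any of the 71 at 72 h, 5.89, with 57.6, 62.4, 66.3 and 72.3 CPM in XX and a single count among the 4 XY DMSO libraries.

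Ion channels and calcium-handling proteins also numbered 7. Kcnq1, Kcng4 and Kcnt1 are potassium channel subunits, Trpc7 a cation channel, Itpr2 the calcium-release channel of the endoplasmic reticulum gated by inositol trisphosphate, Calb1 a calcium-binding protein, and Tmem178 a membrane protein tied to calcium stores. Itpr2 was the highest of these, at 197, 173, 215 and 217 CPM in XX and 36.8, 23.5, 27.9 and 32.9 CPM in XY DMSO libraries at 72 h.

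A further 8 genes encode adhesion, synaptic and cytoskeletal proteins (Lrrn1, Elfn1, Cntnap5a, Magi2, Dsc2, Krt20, Insyn2b and Lzts1), and none of them had a mean of 10 CPM or more in XY DMSO cells at 72 h. 4 genes were kinase or small GTPase regulators: Dclk1 is a microtubule-associated kinase, Rasgrp1 activates Ras, Dock2 activates Rac mainly in blood cells, and Fam83g binds casein kinase 1. The 3 interferon-induced genes were Ifitm1, which encodes a membrane protein that restricts virus entry, and the guanylate-binding protein genes Gbp2 and Gbp2b. Ifitm1 and Dclk1 were the most abundant of the 71 at 72 h in XX cells, with Ifitm1 at 479, 502, 396 and 358 CPM and Dclk1 at 339, 373, 313 and 332 CPM. In XY DMSO cells they also led, with Ifitm1 at 70.6, 71, 89 and 82.9 CPM and Dclk1 at 74.3, 63, 64.2 and 76.7 CPM.

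Enzymes, transporters and trafficking proteins made up the largest group, 11 genes, with the steroid-converting enzymes Hsd17b2 and Akr1c14, the xylosyltransferase Gxylt2 that modifies Notch-type sugars, the sugar phosphate transporter Slc37a2 and the sialidase Neu3. Gxylt2 was the highest of them at 117, 77.7, 95.4 and 96.7 CPM in XX and 19.6, 15.5, 10.9 and 19.5 CPM in XY DMSO libraries at 72 h. 6 genes encode other or little-known proteins, led by Niban1, a stress-responsive regulator of translation, and Prcd, a small protein of photoreceptor discs. Niban1 stood at 232, 172, 184 and 178 CPM and Prcd at 108, 143, 115 and 106 CPM in XX libraries at 72 h. Of 9 lncRNAs, E330013P04Rik (ENSMUSG00000053117.11, chr19:60130093-60160007) was by far the highest, at 134, 199, 131 and 141 CPM in XX and 26.2, 21.5, 23.9 and 29 CPM in XY. Its annotated span overlaps Fam204a on the other strand.

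The set did not keep 1 level in XX cells over time. At 72 h 15 genes were lower and 9 higher than at 0 h by at least 1 in mean log2(CPM + 1), and the median difference was -0.19. Snx31 (-3.41), the ligand Ereg (-2.90), Msx1 (-2.49) and Trpc7 (-2.11) were the furthest below their 0 h level. Ly6d (3.99), Cst12 (2.68), Adamdec1 (2.02) and Grik3 (1.91) the furthest above it. These differences cross the 2 pools and were not tested.

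Several members lie close together on the mouse genome (GRCm39). Gbp2b and Gbp2 are neighbours on chromosome 3, 1.41 kb apart, and Bhlhe41 and Itpr2 lie 198 kb apart on chromosome 6. Sohlh1 and Kcnt1 are 16.4 kb apart on chromosome 2, and Irx5 lies 550.1 kb from Irx3os on chromosome 8, near the left-out Irx3. Gm36325 (643 kb), Ces1h (976 kb) and Gm45765 (987 kb) also lie within 1000 kb of Irx5. Ces1h and Gm45765 overlap, as do Insyn2b and Dock2 on chromosome 11, and Gm20275 and Nr2e3 lie 1.69 kb apart on chromosome 9. Chromosome 8 held 10 members, 14.1% of the 71 against 5.52% of autosomal genes tested, and chromosome 16 held none. As several of the 10 lie together near Irx5, nothing is read from that share. In the last 500 bases of their transcripts, where this type of library takes its reads, Gbp2 shared 4.49% of its 40-base stretches with Gbp2b and Ifitm1 shared 4.94% with Ifitm3 or Ifitm2, and the counts of these genes are uncertain to that extent.

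With FGFRi or MEKi, the mean sum of these transcripts in XY cells was higher than with DMSO and far below that of XX cells. The DMSO libraries had served to choose the genes as low in XY cells, which favours a higher sum in any other XY group. The sums are therefore descriptions. At 72 h the 71 genes summed to 438 to 636 CPM in the DMSO libraries, 704 to 753 CPM with FGFRi and 612 to 714 CPM with MEKi, against 3777 to 3999 CPM in XX libraries. The FGFRi libraries lay above every DMSO library, and the MEKi libraries overlapped the highest DMSO library, M5. That library owed 104 CPM to Ly6d alone. At 24 h the sum was 533 to 592 CPM with DMSO and 710 to 922 CPM with MEKi, with no overlap, and 790 to 859 CPM with FGFRi in the other pool. The mean XX sum was still 5.39 times that of FGFRi and 5.80 times that of MEKi at 72 h, and 6.03 and 5.99 times at 24 h.

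Ifitm1 and Dclk1 carried much of the difference in the sum. Of a difference of 209 CPM between FGFRi and DMSO at 72 h, Ifitm1 made 64.0 and Dclk1 52.4 CPM. Of 158 CPM between MEKi and DMSO at 72 h, Dclk1 made 67.1 and Ifitm1 35.5 CPM. Without both genes and Ly6d, the other 68 summed to 301 to 379 CPM with DMSO, 415 to 504 CPM with FGFRi and 365 to 452 CPM with MEKi at 72 h.

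**Figure D2:**
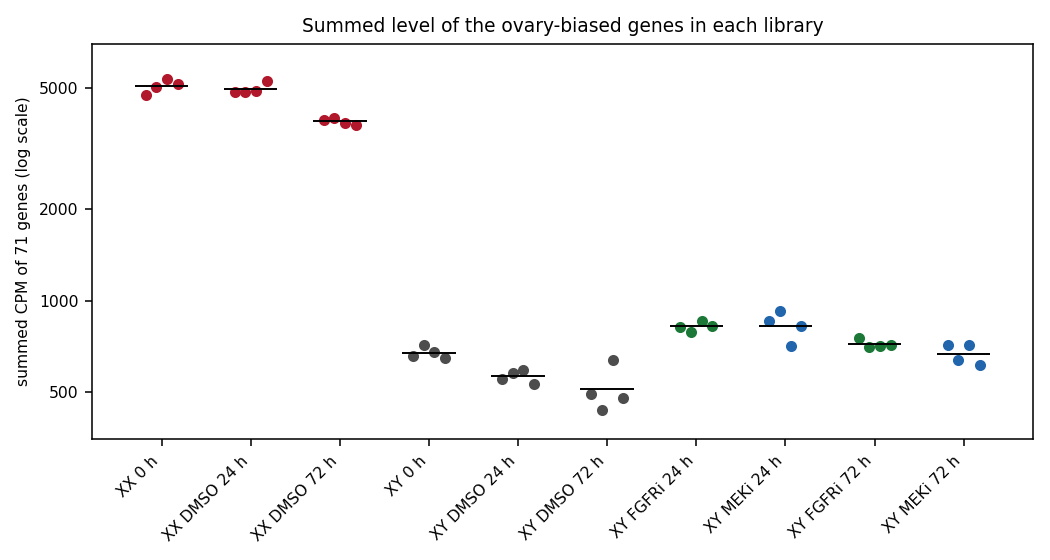
Summed level of the 71 genes in CPM (vertical axis) in each library (points) of the 10 groups (horizontal axis), on a log axis, where bars are the means of 4 libraries. XX libraries lie between 3777 and 5368 CPM, and no XY library, with or without an inhibitor, exceeds 922 CPM.

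The distance to XX cells was also taken gene by gene, as the share of the DMSO-to-XX difference in mean log2(CPM + 1) that a group covered. The median over the 71 genes was 10.0% with FGFRi and 6.89% with MEKi at 72 h, and 5.43% with FGFRi and 7.54% with MEKi at 24 h. The choice of the genes as low with DMSO favours positive shares, and nothing is read from these medians. All 71 genes had each FGFRi library of 72 h below each XX library of 72 h, as had 10.7% of all genes tested. With MEKi at 72 h 70 genes did, against 13.2% of all genes, and Gpr55 was the exception. At 24 h 70 genes did so with FGFRi (13.4% of all genes) and 70 with MEKi (11.5% of all genes), with Calb1 the exception both times. The choice of the genes sets these counts, and nothing more is read from them.

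Calb1 came closest to the XX level. At 24 h it stood at 1.79, 0.793, 1.86 and 0.384 CPM in the XY DMSO libraries, 2.93, 5.77, 8.79 and 9.91 CPM with MEKi, 6.54, 3.5, 8.22 and 2.2 CPM with FGFRi and 10.5, 6.91, 7.11 and 9.91 CPM in XX libraries. With MEKi it covered 82.6% and with FGFRi 65.3% of the DMSO-to-XX difference. At 72 h it was low again, at 2.28, 1.24, 0 and 0.422 CPM with FGFRi and 0, 2.27, 0.947 and 0 CPM with MEKi. The largest shares at 72 h were 46.9% for Tmem178 and 42.5% for Dclk1 with MEKi, and 38.4% for Dsc2 with FGFRi.

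Tests used edgeR's quasi-likelihood model on all 40 libraries, and a DEG had a Benjamini-Hochberg false discovery rate (FDR) below 0.05 across 15125 tested genes and differed by a factor of 1.5 or more. All 71 genes passed the filter on low counts through their XX libraries, and 30 would have passed on the XY libraries of 72 h alone. The XY DMSO libraries of each comparison also served to choose the genes as low in XY cells, which favours a rise against them. Counts of DEGs, medians and shares of positive values against DMSO are therefore descriptions, set beside those of all genes for scale and with nothing read from the difference. FGFRi and MEKi at 72 h were compared with the same 4 DMSO libraries, so the 2 comparisons are not independent of each other. Values per library follow the order M2, M4, M5 and M6 for DMSO and FGFRi at 72 h, M2, M3, M4 and M5 for MEKi at 72 h and DMSO at 24 h, M1, M2, M4 and M6 for MEKi at 24 h, and M1, M3, M4 and M5 for FGFRi at 24 h.

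With FGFRi at 72 h, 7 of the 71 genes rose and 1 fell, 11.3% in all. Of all genes tested 1.8% were DEGs, 0.866% higher and 0.939% lower. The 7 were Ifitm1, Dclk1, Adamdec1, E330013P04Rik, Gbp2b, Gbp2 and Tmem178, which made all 3 of the interferon-induced genes, and the gene that fell was Ly6d. The median log2 fold change of the 71 was 0.55, against 0.00 over all genes tested, and 55 of 71 (77.5%) had a positive value, against 49.9% of all genes. These values include the effect of the choice of the genes. By limma's voom with quality weights and treat, which tests against a fold change of 1.5 as the study's own analysis did, none of the 71 passed with FGFRi (4 at an unadjusted p under 0.05), while DESeq2 called 9.

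With MEKi at 72 h, 11 of the 71 genes rose and 3 fell (19.7%), while 6.47% of all genes were DEGs, 2.29% higher and 4.19% lower. Dclk1, Tmem178, Gbp2, Niban1, Gm15543, Adamdec1, Olfm1, Col6a5, Gpr55, E330013P04Rik and Gbp2b rose, and Dock2, Bhlhe41 and Itpr2 fell. Here the median was 0.49 (0.37 with genes lacking counts in 1 group set at their bound and those with 3 counts or fewer in both groups left out), and 48 genes (67.6%) were positive, against 50.4% of all, with the same effect of the choice. By voom and treat none of the 71 passed (9 at an unadjusted p under 0.05), and DESeq2 called 15.

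The 3 interferon-induced genes, the smallest of the function groups set by hand, all rose with FGFRi at 72 h, as did 0.866% of all genes tested. Gbp2 and Gbp2b are neighbours, and the DMSO libraries had served to choose the genes. Nothing is therefore read about the group. Ifitm1 (ENSMUSG00000025491.14, chr7:140546316-140549743) stood at 70.6, 71, 89 and 82.9 CPM with DMSO, 142, 153, 119.8 and 155 CPM with FGFRi and 115, 103, 134 and 103 CPM with MEKi at 72 h. All FGFRi and all MEKi libraries were above all DMSO libraries. The rise was a DEG with FGFRi (log2 fold change 0.87 ± 0.15 (SE), FDR 0.000351), and with MEKi the fold stayed under 1.5 (log2 fold change 0.58 ± 0.15 (SE), FDR 0.00765). Gbp2 (ENSMUSG00000028270.12, chr3:142326349-142343779) stood at 4.13, 8.0, 8.95 and 7.14 CPM with DMSO, 12, 13.2, 22.1 and 15.2 CPM with FGFRi and 15.1, 17, 22.1 and 14.7 CPM with MEKi, again without overlap. It rose with both, FGFRi (log2 fold change 1.22 ± 0.29 (SE), FDR 0.0126) and MEKi (log2 fold change 1.39 ± 0.28 (SE), FDR 0.000684). The rise with FGFRi missed the FDR when FGFRi library M5 or DMSO library M2 was left out, with a highest FDR of 0.150.

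Gbp2b (ENSMUSG00000040264.10, chr3:142300602-142324940) behaved alike at 72 h, at 9.98, 8.0, 10.4 and 11.4 CPM with DMSO, 22.8, 21.5, 20.6 and 17.3 CPM with FGFRi and 19.2, 16.3, 21.5 and 13.7 CPM with MEKi. Both sets lay above the DMSO set. It rose with FGFRi (log2 fold change 1.04 ± 0.24 (SE), FDR 0.011) and with MEKi (log2 fold change 0.88 ± 0.25 (SE), FDR 0.0137), the latter with an FDR of 0.0675 when MEKi library M4 was left out. Among 36 other tested interferon-induced genes, a list made after the values were seen, edgeR and DESeq2 called none with FGFRi at 72 h (3 at an unadjusted p under 0.05), and with MEKi 1 rose and 5 fell.

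Dclk1 (ENSMUSG00000027797.15, chr3:55149618-55446493) was the member with the smallest FDR with MEKi at both times. Its levels were 74.3, 63, 64.2 and 76.7 CPM with DMSO, 130.0, 126, 87.6 and 144 CPM with FGFRi and 149.8, 128, 125 and 144 CPM with MEKi at 72 h, and no library of an inhibitor overlapped a DMSO library. It rose with FGFRi (log2 fold change 0.81 ± 0.15 (SE), FDR 0.000896) and with MEKi (log2 fold change 1.00 ± 0.15 (SE), FDR 2.41e-06). At 24 h it stood at 47.2, 51.8, 58.5 and 47.2 CPM with DMSO and 153, 145, 103 and 94.1 CPM with MEKi, also without overlap (log2 fold change 1.32 ± 0.15 (SE), FDR 6.65e-09). With FGFRi at 24 h it reached 155, 171, 218 and 145 CPM, above every DMSO library of 24 h and in the other pool.

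The other 3 genes that rose with both inhibitors at 72 h were E330013P04Rik, Tmem178 and Adamdec1. E330013P04Rik stood at 26.2, 21.5, 23.9 and 29 CPM with DMSO, 46.7, 47.9, 31.1 and 50.6 CPM with FGFRi and 43.5, 41.2, 42.6 and 28.9 CPM with MEKi. Library M5 was the lowest of each inhibitor, and the lowest of the MEKi libraries, 28.9 CPM, lay just under the highest DMSO library, 29.0 CPM. The lncRNA rose with FGFRi (log2 fold change 0.80 ± 0.19 (SE), FDR 0.011) and MEKi (log2 fold change 0.68 ± 0.19 (SE), FDR 0.0127). Tmem178 stood at 7.23, 5.0, 7.96 and 7.14 CPM with DMSO, 12.54, 14.5, 17.4 and 10.1 CPM with FGFRi and 11, 19.7, 22.1 and 13.7 CPM with MEKi, without overlap. It rose with FGFRi (log2 fold change 1.00 ± 0.28 (SE), FDR 0.0356), a call that held in 3 of 8 fits with 1 library left out, and with MEKi (log2 fold change 1.33 ± 0.27 (SE), FDR 0.000581), a call that held in 8 of 8.

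Adamdec1 shows how low some of these levels were. Its libraries had 0, 0, 0 and 0.476 CPM with DMSO, 2.85, 1.65, 2.17 and 1.69 CPM with FGFRi and 2.75, 1.51, 1.26 and 2.1 CPM with MEKi at 72 h, against 57.6 to 72.3 CPM in XX cells. That was 1 count in all with DMSO, 19 with FGFRi and 18 with MEKi. The ratio of counts per total was 18.4 (95% exact interval 2.93 to 765, counting error only) with FGFRi and 16.4 (2.59 to 683) with MEKi, and edgeR gave FDRs of 0.00885 and 0.004. The call with FGFRi was lost without DMSO library M2 (FDR 0.0599).

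Ly6d was the single gene that fell with FGFRi, and its value rested on 1 control library. It stood at 0.344, 3.0, 104 and 0.476 CPM with DMSO, with M5 within the XX range of 76.4 to 165 CPM and the other 3 at 3 CPM or less. With FGFRi it stood at 2.85, 1.24, 1.09 and 0 CPM, and with MEKi at 35.3, 1.51, 1.58 and 0.526 CPM, where M2 was high. The fit gave a fall with FGFRi (log2 fold change -4.40 ± 1.04 (SE), FDR 0.0114), and without DMSO library M5 the value was 0.052 (FDR 0.992). With MEKi the value was -1.46 (FDR 0.189), without DMSO library M5 it was 3.0 (FDR 0.0262), a rise, and without MEKi library M2 it was -4.28 (FDR 0.00311), a fall.

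5 genes rose with MEKi at 72 h and did not pass with FGFRi. Niban1 stood at 15.5, 8.5, 21.4 and 16.7 CPM with DMSO, 25.2, 30.6, 36.6 and 18.9 CPM with MEKi and 25.7, 20.6, 22.8 and 20.3 CPM with FGFRi. 3 of 4 MEKi libraries were above every DMSO library (log2 fold change 0.91 ± 0.19 (SE), FDR 0.00118). Gm15543 stood at 2.41, 2.0, 2.49 and 1.9 CPM with DMSO, 7.33, 6.05, 5.37 and 9.99 CPM with MEKi and 4.56, 4.96, 4.7 and 5.06 CPM with FGFRi, and both sets were above the DMSO set. It rose with MEKi (log2 fold change 1.67 ± 0.37 (SE), FDR 0.00152), and with FGFRi its FDR was 0.127. Olfm1 stood at 10.3, 4.0, 13.4 and 6.67 CPM with DMSO, 15.1, 17.8, 21.5 and 14.2 CPM with MEKi and 13.1, 13.2, 8.32 and 11.4 CPM with FGFRi. Its MEKi libraries were all above DMSO (log2 fold change 1.03 ± 0.25 (SE), FDR 0.00412).

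Col6a5 and Gpr55 completed the 5. Col6a5 stood at 2.41, 2.0, 1.99 and 1.9 CPM with DMSO, 7.79, 4.54, 7.89 and 3.68 CPM with MEKi and 2.28, 3.72, 1.81 and 1.27 CPM with FGFRi. The MEKi libraries alone lay clear of DMSO (log2 fold change 1.55 ± 0.41 (SE), FDR 0.00863). Gpr55 had no count in the 4 DMSO libraries and 17 with MEKi (1.37, 0, 3.16 and 2.1 CPM), which made it at least 5.16-fold higher (edgeR FDR 0.0112). MEKi library M4 held 10 of the 17 counts, and without it the FDR was 0.0674. With FGFRi it had 8 counts, at least 2.58-fold more than DMSO, with an FDR of 0.174. These bounds set the group without counts at 3 counts over its 4 libraries.

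3 ovary-biased genes fell with MEKi at 72 h, away from the XX level. Bhlhe41 (ENSMUSG00000030256.11, chr6:145803969-145811430) stood at 6.88, 10.5, 14.4 and 5.71 CPM with DMSO, 2.29, 2.27, 1.58 and 4.73 CPM with MEKi, 6.84, 3.72, 9.05 and 5.91 CPM with FGFRi and 44.9 to 103 CPM in XX cells. The MEKi libraries were all below the DMSO libraries (log2 fold change -1.80 ± 0.42 (SE), FDR 0.00273). Dock2 had 2.75, 1.0, 2.98 and 1.43 CPM with DMSO, 0, 0.413, 2.89 and 1.69 CPM with FGFRi and no count in any MEKi library. With 19 counts in DMSO this made it at least 6.95-fold lower with MEKi (edgeR FDR 0.00163). Macrophage markers, which mark blood cells as Dock2 does, summed to 60.0 to 199 CPM with DMSO, 42.7 to 54.1 CPM with MEKi and 25.3 to 39.2 CPM with FGFRi over 10 genes, and the part of blood cells in the value of Dock2 was not tested. Itpr2 stood at 36.8, 23.5, 27.9 and 32.9 CPM with DMSO, 18.8, 17.4, 19.9 and 19.5 CPM with MEKi and 27.9, 22.3, 14.8 and 18.1 CPM with FGFRi. Its fall with MEKi (log2 fold change -0.66 ± 0.20 (SE), FDR 0.0273) held in 4 of 8 fits with 1 library left out, with a highest FDR of 0.134.

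**Figure D3:**
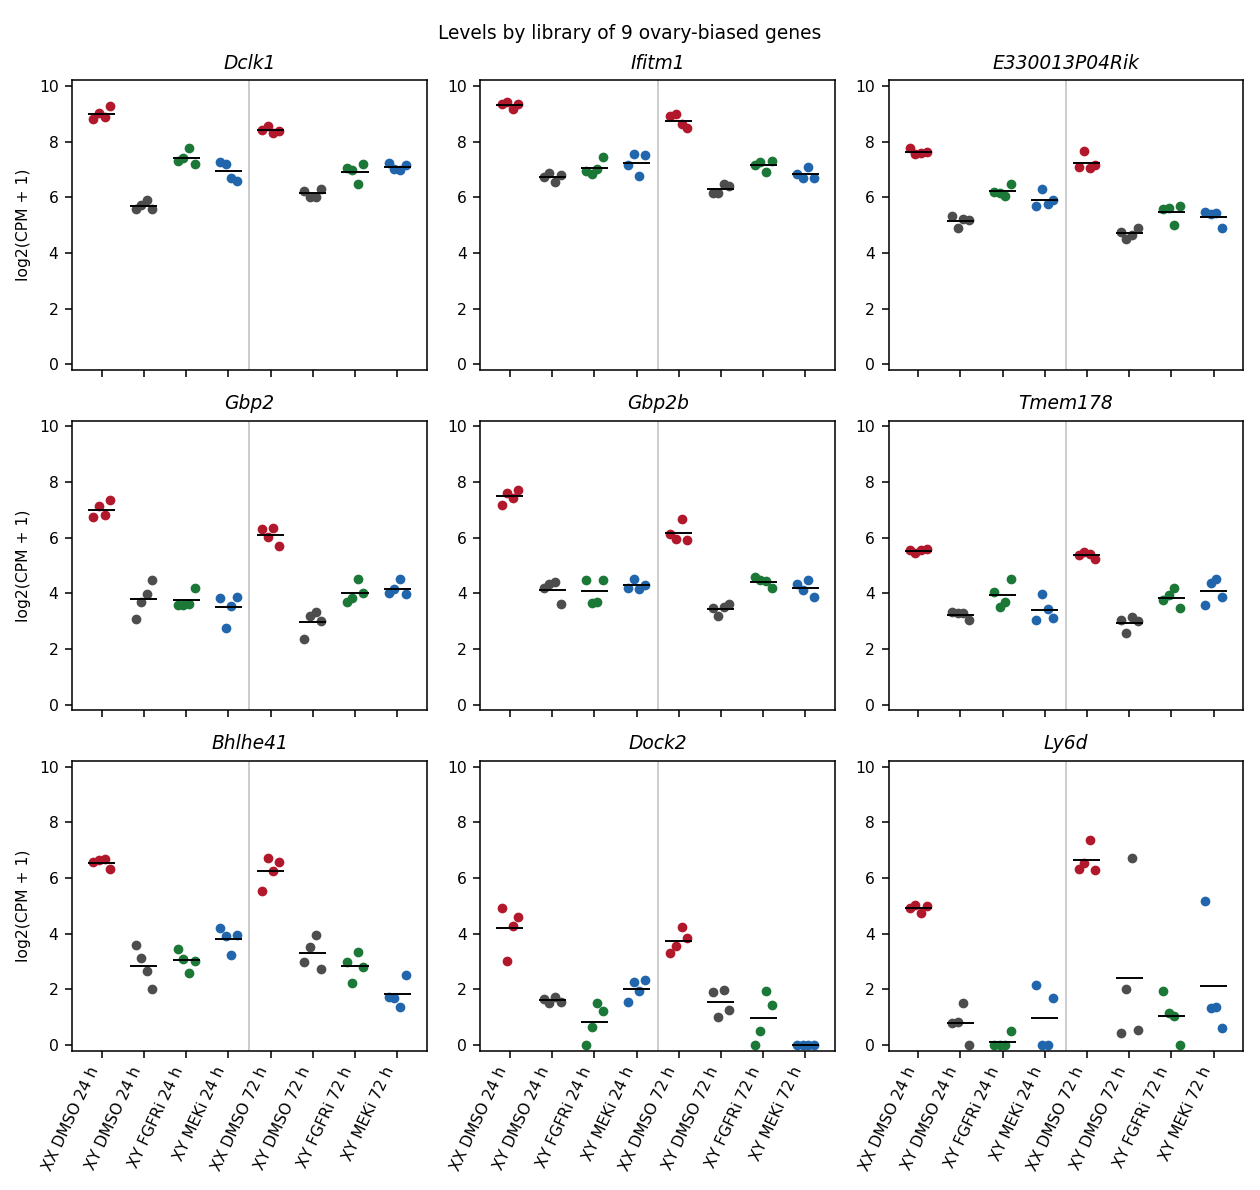
Level in log2(CPM + 1) (vertical axis) of 9 members, with a panel for each, in each library (points) of the XX, DMSO, FGFRi and MEKi groups of 24 h and 72 h (horizontal axis), where bars are the means of 4 libraries. Dclk1, Ifitm1 and Gbp2 lie above DMSO with both inhibitors at 72 h and below XX, Dock2 has no count with MEKi at 72 h, and Ly6d is high in 1 DMSO library.

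Other cell types moved beside these values at 72 h. Of 20 tested Sertoli markers, 11 fell with MEKi and 1 rose with FGFRi, and the 20 summed to 886 to 1291 CPM with MEKi and 1995 to 3574 CPM with FGFRi. Of 10 endothelial markers 8 fell with MEKi, and with FGFRi edgeR and DESeq2 called none (2 at an unadjusted p under 0.05), the sums being 86.2 to 160 CPM with DMSO, 45.2 to 64.2 with MEKi and 80.9 to 137 with FGFRi. Of 9 tested macrophage markers 6 fell with MEKi and 7 with FGFRi. Of 5 tested coelomic epithelium markers 4 rose with MEKi, from 278 to 360 CPM in sum with DMSO to 492 to 521 CPM, and 1 rose with FGFRi (372 to 493 CPM). Of 7 foetal Leydig markers 4 rose with MEKi and 1 with FGFRi. No gene of these lists was at 0 in all 4 libraries of an XY group at 72 h, and the part of these cells in the members' values was not tested.

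The pre-granulosa markers themselves gave calls in each of the 4 comparisons. Of 19 tested, 2 of them members (Irx5 and Msx1), Rspo1 rose and Wnt4 fell with FGFRi at 72 h by edgeR, and Nr0b1 rose while Lgr5 and Wnt6 fell with MEKi. The paper, by its own test of the somatic cells, reported no change of Rspo1 or Wnt4 with either inhibitor. By voom and treat, 0 of the 19 passed with FGFRi at 72 h, and with MEKi 0 were higher and 1 lower. With MEKi at 24 h Irx3 and Runx1 rose, and for MEKi against FGFRi at 72 h 2 of the 19 were higher and 4 lower with MEKi. Of all genes tested, 1.8% were DEGs with FGFRi at 72 h, 6.47% with MEKi at 72 h and 3.27% with MEKi at 24 h. For MEKi against FGFRi at 72 h the share was 6.43%. At 72 h the sum of the 20 listed pre-granulosa markers was 761 to 779 CPM with FGFRi and 687 to 738 CPM with MEKi, near the 700 to 790 CPM with DMSO. The homeobox gene Irx5, the member with the second largest minimum difference, had 1 count over the 4 DMSO libraries and 3 counts with each inhibitor at 72 h, too few for a fold change. Lzts1, the member with the largest, stood at 6.84, 8.26, 9.41 and 12.2 CPM with FGFRi and 11.9, 16.3, 14.2 and 14.2 CPM with MEKi, with FDRs of 0.935 and 0.0952.

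With MEKi at 24 h, 9 of the 71 (12.7%) rose and none fell by edgeR, and DESeq2 called 13 higher and none lower. Of all genes 3.27% were DEGs, 1.29% higher and 1.98% lower. At an unadjusted p under 0.05, 22 of the 71 differed in either direction. The 9 were Dclk1, Slc37a2, Prcd, E330013P04Rik, Krt20, Calb1, Ifitm1, Col6a5 and Bhlhe41. The median log2 fold change was 0.49 (0.51 with bounds), and 53 genes (74.6%) were positive, against 49.1% of all genes, again with the effect of the choice. By voom and treat 1 of the 71 passed.

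Slc37a2 (ENSMUSG00000032122.15, chr9:37138881-37167112) stood at 5.37, 7.4, 9.1 and 4.99 CPM with DMSO and 16.1, 21.8, 12.3 and 17.6 CPM with MEKi at 24 h. The groups did not overlap (log2 fold change 1.31 ± 0.25 (SE), FDR 0.000228), and with FGFRi it stood at 10.6, 11.7, 10.5 and 8.78 CPM. Prcd stood at 19.3, 14.5, 13.2 and 11.5 CPM with DMSO and 35.6, 38.5, 16.5 and 35.1 CPM with MEKi, where M4 was low and inside the DMSO range (log2 fold change 1.13 ± 0.22 (SE), FDR 0.000517). Krt20, a keratin of surface epithelia, stood at 2.5, 2.38, 0.827 and 0 CPM with DMSO, 5.85, 8.33, 3.52 and 8.11 CPM with MEKi and 1.01, 0, 0.457 and 0 CPM with FGFRi. Each MEKi library was above each DMSO library and each FGFRi library was within the DMSO range (log2 fold change 2.15 ± 0.44 (SE), FDR 0.000949). E330013P04Rik stood at 39, 28.8, 36 and 35.3 CPM with DMSO and 50.7, 78.2, 52.8 and 59.4 CPM with MEKi, without overlap (log2 fold change 0.84 ± 0.17 (SE), FDR 0.000621).

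For Calb1, with the values given above, the 24 h rise with MEKi was tested (log2 fold change 2.48 ± 0.55 (SE), FDR 0.00255), and no MEKi library overlapped DMSO. Ifitm1 stood at 106, 115, 92 and 111 CPM with DMSO and 141, 187, 108 and 182 CPM with MEKi at 24 h. MEKi library M4 lay within the DMSO range (log2 fold change 0.60 ± 0.14 (SE), FDR 0.00609), and the call held in 5 of 8 fits with 1 library left out. Col6a5 stood at 1.43, 1.59, 0.827 and 0.768 CPM with DMSO and 1.46, 7.05, 4.22 and 2.7 CPM with MEKi, where M1 was inside the DMSO range (log2 fold change 1.72 ± 0.46 (SE), FDR 0.0183), and held in 5 of 8. Bhlhe41 stood at 11.1, 7.67, 5.38 and 3.07 CPM with DMSO and 17.6, 14.1, 8.44 and 14.4 CPM with MEKi, where M4 was inside the DMSO range, and its rise (log2 fold change 1.04 ± 0.31 (SE), FDR 0.0361) held in 2 of 8 such fits.

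Germ cell markers moved with the 24 h MEKi group. Of 15 tested, 11 rose, and the 18 listed genes summed to 425 to 719 CPM with MEKi and 164 to 228 CPM with DMSO, though the cells were sorted as GFP-negative. Among the 71, Sohlh1 is a germ cell factor, with a mean of 2.07 ± 0.754 CPM (SD, n = 4) with DMSO and 3.03 ± 1.33 CPM with MEKi at 24 h, and it did not pass (FDR 0.522). All 10 endothelial markers fell at 24 h, from 238 to 363 CPM in sum with DMSO to 59.4 to 80.1 CPM with MEKi. The part of these cells in the members' values was not tested.

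A test of the interaction, with each effect of MEKi taken within 1 pool, called 6 members (8.45% of the 71) as different between 24 h and 72 h. Its 24 h groups lay in the first pool and its 72 h groups in the second. A change with time and a difference between pools therefore cannot be told apart. The DMSO libraries of both times had also served to choose the genes, so these calls are descriptions. Of all genes tested 1.41% passed, 0.555% with a higher and 0.853% with a lower value at 72 h. Bhlhe41 had the clearest change, from a rise at 24 h to a fall at 72 h (interaction -2.83, FDR 0.00121). Dock2, at 2.15, 1.85, 2.27 and 1.92 CPM with DMSO and 1.95, 3.85, 2.81 and 4.05 CPM with MEKi at 24 h, had counts with MEKi at 24 h and none at 72 h (FDR 0.00699). Gbp2 stood at 7.51, 11.9, 14.9 and 21.5 CPM with DMSO and 13.2, 5.77, 10.6 and 13.5 CPM with MEKi at 24 h, where the groups overlapped, and had a higher value at 72 h (1.66, FDR 0.0134). Prcd (-1.28, FDR 0.0305), Cst12 (-1.65, FDR 0.0335) and Adamdec1 (FDR 0.038) were the others.

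**Figure D4:**
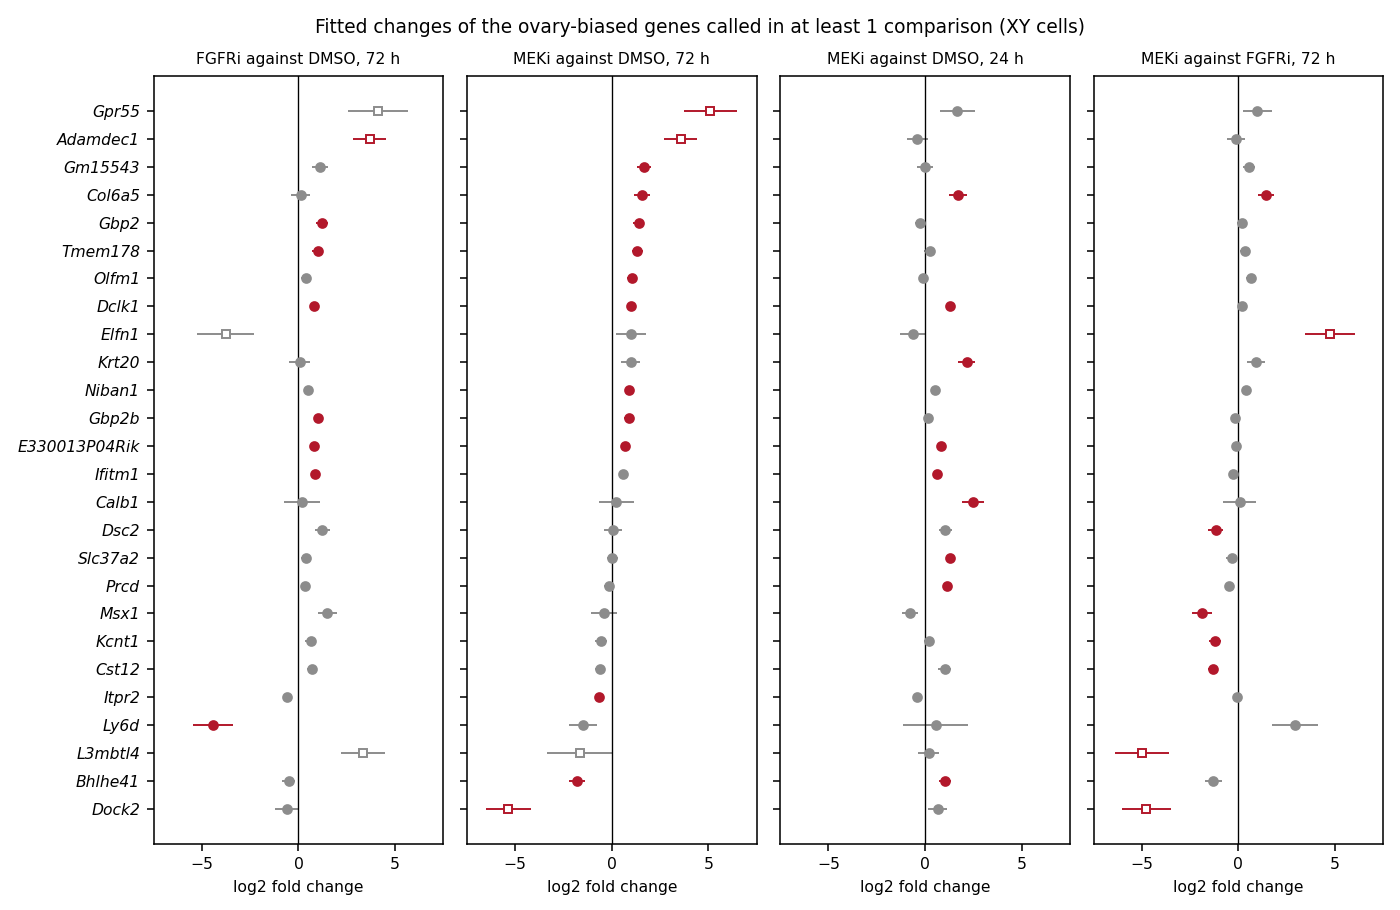
Log2 fold change (horizontal axis, log2 scale) with its standard error of the members that were DEGs in at least 1 comparison (vertical axis), with a panel for each of 4 comparisons, red where the gene was a DEG and grey otherwise, and open squares where 1 group held 3 counts or fewer. Most red points against DMSO lie to the right of 0, and in the comparison of MEKi with FGFRi 2 lie to the right and 6 to the left.

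MEKi and FGFRi at 72 h were compared directly, a comparison in which no library had served to choose the genes, although only 30 of the 71 would have passed the filter on low counts in the XY libraries of 72 h alone. Here 8 of the 71 were DEGs, 2 higher and 6 lower with MEKi, while 6.43% of all genes were DEGs, 1.74% higher and 4.69% lower. The median was -0.03 (-0.07 with bounds), and 35 of 71 (49.3%) were positive, against 51.7% of all genes. The 8 DEGs were 11.3% of the 71. By voom and treat none of the 71 passed (3 at an unadjusted p under 0.05), and DESeq2 called 11. Markers of other cells moved in the same comparison, with 17 of 20 Sertoli and 5 of 10 endothelial markers lower with MEKi than with FGFRi, and their part in the members' values was not tested. Elfn1, a synaptic adhesion protein, and Col6a5 were higher with MEKi, and Cst12, Kcnt1, Dock2, Msx1, L3mbtl4 and Dsc2 were lower.

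Cst12 had the smallest FDR of these. It stood at 34.8, 25.6, 52.5 and 34.2 CPM with FGFRi and 14.7, 11.7, 17.7 and 13.1 CPM with MEKi, without overlap (log2 fold change -1.32 ± 0.24 (SE), FDR 0.000105), and between them at 22.7, 24, 24.9 and 20.5 CPM with DMSO. Against DMSO it passed with neither FGFRi (FDR 0.101) nor MEKi (FDR 0.101). Kcnt1, a sodium-activated potassium channel, stood at 11.4, 7.85, 14.8 and 8.86 CPM with FGFRi and 4.12, 5.29, 4.42 and 4.21 CPM with MEKi (log2 fold change -1.21 ± 0.30 (SE), FDR 0.00465). The groups did not overlap, and without FGFRi library M5 the FDR was 0.0651. Msx1 stood at 2.85, 2.89, 4.7 and 2.11 CPM with FGFRi, 0.916, 0.378, 1.26 and 0.526 CPM with MEKi and 1.03, 2.0, 1.49 and 0 CPM with DMSO (log2 fold change -1.90 ± 0.53 (SE), FDR 0.0131 for MEKi against FGFRi), and this call too was lost without FGFRi library M5, with a highest FDR of 0.109.

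The remaining calls rested on few counts, and L3mbtl4, Dock2 and Elfn1, 3 of the 8 DEGs, had no count in 1 of the 2 groups. L3mbtl4 had 15 counts with FGFRi, 10 of them in M5, none with MEKi and 1 with DMSO, so that it was at least 5.32-fold lower with MEKi than with FGFRi (edgeR FDR 0.0144, and 0.153 without FGFRi library M5). Dock2, with 13 counts with FGFRi and none with MEKi, was at least 4.61-fold lower (FDR 0.0089, and 0.0982 without FGFRi library M5). Elfn1 had no count with FGFRi and 13 with MEKi (1.83, 0.756, 0.947 and 2.1 CPM), at least 4.08-fold more (FDR 0.0112). Dsc2, a desmosomal cadherin, stood at 7.98, 4.96, 5.79 and 5.91 CPM with FGFRi and 2.75, 3.4, 2.21 and 2.1 CPM with MEKi (log2 fold change -1.16 ± 0.39 (SE), FDR 0.0449), a call that held in 1 of 8 fits with 1 library left out. Col6a5 (log2 fold change 1.44 ± 0.40 (SE), FDR 0.0131) held in 4 of 8.

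Other members with high levels in XX cells gave no call with either inhibitor. Zbtb7c stood at 33, 20.5, 34.8 and 26.2 CPM with DMSO, 31.9, 30.1, 39.1 and 21.1 CPM with FGFRi and 36.7, 29.1, 30.9 and 29.4 CPM with MEKi at 72 h, and the 3 sets overlapped. Tnfrsf19 stood at 16, 13.2, 15.2 and 17.7 CPM with FGFRi and 11.5, 7.56, 11.4 and 8.41 CPM with MEKi, with FDRs of 0.282 and 0.723 against DMSO. Gxylt2 stood at 35.3, 17.8, 24.2 and 15.2 CPM with FGFRi and 26.6, 26.5, 21.2 and 22.6 CPM with MEKi, where the MEKi libraries were above all DMSO libraries but missed the threshold (FDR 0.0874). Of the genes at the edge of the choice, Akr1c14 stood at 3.42, 1.65, 2.53 and 1.27 CPM with FGFRi and 1.37, 1.51, 2.84 and 0.526 CPM with MEKi, and Grik3 at 1.14, 2.06, 3.62 and 0.422 and 0.916, 0, 0.631 and 1.58 CPM, with no call.

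By function the DEGs were scattered. Against DMSO at 72 h or 24 h no gene of the adhesion, synaptic and cytoskeletal group passed apart from Krt20, and of the 11 enzymes, transporters and trafficking proteins Slc37a2 alone passed. Of the 8 transcription regulators only Bhlhe41 passed, higher at 24 h and lower at 72 h with MEKi. The proteases, inhibitors and matrix proteins gave 1 DEG with FGFRi and 3 with MEKi at 72 h, all higher. Of the 9 lncRNAs, E330013P04Rik was higher in all 3 comparisons with DMSO and Gm15543 with MEKi at 72 h. In all, 26 of the 71 were DEGs in at least 1 of 4 comparisons and 20 in a comparison with DMSO. Of all genes tested, 1.8% were DEGs with FGFRi at 72 h, 6.47% with MEKi at 72 h, 3.27% with MEKi at 24 h and 6.43% for MEKi against FGFRi. No pooled share of all genes is given, and the DMSO libraries had served to choose the members, so nothing is read from the 26 or the 20.

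A pair of signalling lists was read in the same bulk libraries, and which signals or cells moved their genes was not tested. Of 13 tested genes listed as WNT and R-spondin output, Ccnd1 fell with FGFRi at 72 h, Dkk1 rose and Lef1, Sp5 and Ccnd1 fell with MEKi at 72 h, and Lef1 and Ccnd1 fell with MEKi at 24 h. Of 10 tested BMP output genes, Msx1 among them, Smad7 fell with MEKi at 72 h and Id1 at 24 h, and with FGFRi edgeR and DESeq2 called none (2 at an unadjusted p under 0.05). Of all genes tested, 1.8% were DEGs with FGFRi at 72 h, 6.47% with MEKi at 72 h and 3.27% with MEKi at 24 h.

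Sequence upstream of the start was read for the members found in RefSeq's promoter table (windows of GRCm38.p6, 250 bases before to 50 after the start), which matched 50 of the 71 with 55 windows. On both strands, the AP-1 letters TGACTCA were in 3 of 55 windows (5.45%, against 5.20% of all 32851), the TCF/LEF letters CTTTGAT in 3 (5.45% against 3.73%), the forkhead letters GTAAACA in 3 (5.45% against 3.65%) and the nuclear receptor letters AGGTCA in 11 (20.0% against 16.3%). These are matches of letters and not sites of binding. The AP-1 letters were about as frequent in the members as in all promoters, and nothing is drawn from them. The 3 windows that held them, given here as examples of promoters of members with DEG calls, belonged to Dclk1, Gbp2 and Slc37a2. They run from 5′ to 3′ on the strand of the gene, found again by sequence in GRCm39 and limited to bases outside the annotated exons of the gene, with the AP-1 letters in capitals (read here as TGAGTCA, the other strand of TGACTCA). The Dclk1 stretch is chr3:55368899-55369148 on the plus strand, before a start that lies within the gene, the Gbp2 stretch is chr3:142326174-142326348 on the plus strand, and the Slc37a2 stretch is chr9:37167113-37167284 on the minus strand.
Dclk1: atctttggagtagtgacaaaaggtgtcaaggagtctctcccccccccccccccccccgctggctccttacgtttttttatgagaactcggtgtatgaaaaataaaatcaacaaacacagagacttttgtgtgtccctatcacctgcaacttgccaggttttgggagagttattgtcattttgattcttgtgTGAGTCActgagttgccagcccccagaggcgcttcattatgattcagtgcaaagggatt
Gbp2: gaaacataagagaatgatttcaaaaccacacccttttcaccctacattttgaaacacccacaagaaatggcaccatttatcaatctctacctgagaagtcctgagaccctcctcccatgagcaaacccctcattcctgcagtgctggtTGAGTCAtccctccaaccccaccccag
Slc37a2: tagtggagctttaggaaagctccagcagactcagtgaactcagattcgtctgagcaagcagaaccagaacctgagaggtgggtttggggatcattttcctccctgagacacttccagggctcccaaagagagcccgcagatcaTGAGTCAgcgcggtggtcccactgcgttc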

How the data were processed

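The deposited table held whole-number counts per gene and library, which the authors made from 3′ reads with unique molecular identifiers (UMIs). Per the labels the genome build was GRCm39. The study's code, written for the germ cell libraries of the same experiment, counted UMIs by strand with scPipe, and the same is assumed for the somatic libraries. Without strand, genes that overlap an antisense gene would be uncertain (46 of the 71 overlap an annotated gene on the other strand and 22 one on the same strand). The 40 libraries were identified by their column names, with 1 library (24 h, MEKi, M2) named in the deposited barcode list and table and missing from the sample description. Replicates were pools of gonads, and where pools shared animals or cultures is not given, so p-values measure the spread between these libraries. Names and positions came from GENCODE M39, which matched 40391 of 42422 identifiers (99.0% of counts).

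The authors' counts were scaled to CPM for levels and tested with edgeR 4.0.16 (TMM factors, filterByExpr by group, quasi-likelihood F-test, 10 groups in 1 model of 40 libraries) in R 4.3.3, with Benjamini-Hochberg adjustment. A call needed an FDR below 0.05 and a fold change of at least 1.5. FGFRi at 24 h was not tested because its DMSO libraries lay in the other pool. Standard errors were taken as the size of the log2 fold change over the square root of F. Intervals and bounds of low counts cover counting error only. The members and the lists (pre-granulosa, Sertoli, germ, endothelial, macrophage, erythroid, foetal Leydig, interstitial progenitor, mesonephric duct and coelomic epithelium markers, and WNT and R-spondin, BMP and MAPK output) were chosen with earlier results of these data known, and the interferon list and the repeats of the interaction test without 1 library were added after the data were seen. Members given with values per library were the 12 with the highest mean in XX cells at 72 h, those called in a comparison (the 12 with the smallest FDR where more were called), the 3 with the largest minimum difference and the 3 nearest each side of the threshold, and Sohlh1 and the sequences shown were chosen after their values were seen. Alternatives were RLE factors, total counts, no filter or 1 CPM in 4 libraries, DESeq2 1.42.0, limma 3.58.1 (voom with quality weights and treat), libraries of the same time, a replicate block and leaving out each library. The edgeR test of MEKi against DMSO at 72 h was tried on simulated counts first, with changes placed in well-counted genes only. Changes in genes with low counts, and the other tests, were not simulated. The values of 1 member are not reported here on their own.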

Additional observations from a re-analysis of the deposited data

Results flagged for a closer look

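In 7 of 144 groups of 4 libraries of members with enough counts, 1 library stood far from the other 3 by Dixon's criterion on log2(CPM + 1). Chance alone marks about 1 in 20 groups. On that scale the high DMSO library M5 of Ly6d at 72 h, described above, was not marked. Library M5 was low for E330013P04Rik with FGFRi (31.1 CPM) and with MEKi (28.9 CPM) at 72 h. Library M5 was also low for Tmem178 with DMSO at 24 h (7.29 CPM) and high for Tnfrsf19 with DMSO at 72 h (13.9 CPM). Whether the number 5 links these libraries is not given. With MEKi, library M2 was high for Ly6d at 72 h (35.3 CPM) and library M4 low for Prcd at 24 h (16.5 CPM). With DMSO at 24 h library M4 was high for Zbtb7c (61.6 CPM).

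The effect of MEKi differed between 24 h and 72 h for 6 members by the test of that difference (edgeR, log2 fold change at 72 h minus that at 24 h). The choice of the genes and the separate pools of the times limit these values, as given above. The values were -2.83 for Bhlhe41, -6.01 for Dock2, -1.65 for Cst12, -1.28 for Prcd, 1.66 for Gbp2 and 3.96 for Adamdec1. Those of Dock2 and Adamdec1 depend on how groups with 0 or 1 count are fitted. Leaving out 1 library at a time gave between 3 and 8 such members.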

How the results depend on the processing

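The number of members rested on the pseudocount, with 45 genes meeting the rule at a pseudocount of 2 and 99 at 0.5, and 68 to 78 when 1 library was left out. The choice of test mattered most. By voom with quality weights and treat, the members called were 0 with FGFRi at 72 h, 0 with MEKi at 72 h, 1 with MEKi at 24 h and 0 for MEKi against FGFRi (4, 9, 7 and 3 at an unadjusted p under 0.05), and the DEGs among all genes were 0, 75, 88 and 90 in place of 273, 979, 495 and 972. DESeq2 called 9, 15, 13 and 11 members in these comparisons. Of 39 calls of named members, 39 held with RLE factors and DESeq2, 38 with total counts and with libraries of the same time, 37 without a filter and with 1 CPM in 4 libraries, 21 with the replicate block and 1 with voom and treat, and 0 changed sign in these. In all, 22 of the 39 held without any 1 library. For the 24 h calls the replicate block rested on few pairs, as given below.

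When 1 library was left out, the members called ran from 5 to 9 with FGFRi at 72 h (5 without FGFRi M5 or DMSO M2), 11 to 17 with MEKi at 72 h, 6 to 12 with MEKi at 24 h and 2 to 11 for MEKi against FGFRi (2 without FGFRi M5). The median log2 fold change of the members ran from 0.45 to 0.69, 0.36 to 0.65, 0.41 to 0.58 and -0.10 to 0.092. The members with a different effect of MEKi at 72 h numbered 3 in a fit of the XY DMSO and MEKi libraries alone, and 3 to 8 with 1 library left out (3 without M5 or, with MEKi, M1 or M2 at 24 h, or DMSO M4 or MEKi M5 at 72 h). The value of Ly6d ran from -4.96 to 0.052 with FGFRi and from -4.28 to 3.0 with MEKi at 72 h, the upper ends without DMSO M5. The causes were not tested, apart from the DMSO M5 level of Ly6d given above. Low counts limit these results, since 30 members had a mean below 1 CPM with DMSO at 72 h.

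Correlations of deviations lay between -0.07 and 0.12 for libraries of the same number, and between -0.17 and 0.18 for different numbers. With so few pairs they cannot decide whether libraries of the same number shared animals or cultures. With the replicate number as a block, 5 members were called with FGFRi and 12 with MEKi at 72 h, 2 with MEKi at 24 h and 3 for MEKi against FGFRi, and the DEGs of MEKi at 24 h were 311 in place of 495. At 24 h DMSO and MEKi shared only 2 numbers, so the block compared them on 2 pairs and left little to estimate the spread. The lower counts of that fit cannot decide whether the 24 h calls hold.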

Other observations

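The germ cell genes Sycp1 (log2 fold change 2.14) and Smc1b (1.79) rose with FGFRi at 72 h by edgeR, 2 of 15 tested, although the cells were sorted against germ cells. With MEKi at 24 h 11 of the 15 rose, with Stra8, which starts meiosis, at 4.79 and the RNA-binding protein gene Dazl at 1.49. At 72 h edgeR, DESeq2 and voom with treat called none of the 15 with MEKi, and 0 had an unadjusted p under 0.05.

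Of 8 interstitial progenitor markers, 1 rose and 1 fell with MEKi at 72 h, and with FGFRi edgeR and DESeq2 called 0 (6 at an unadjusted p under 0.05). Of 8 erythroid markers edgeR called 1 lower with MEKi at 72 h, and of 3 tested markers of the mesonephros and its ducts edgeR and DESeq2 called 0 in each comparison (1 at an unadjusted p under 0.05 each time).

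Among 36 tested interferon-induced genes, a list chosen after the rise of Ifitm1, Gbp2 and Gbp2b was seen, Iigp1 rose (1.15) and Isg15 (-2.30), Rsad2 (-2.10) and Rtp4 (-1.83) were among 5 that fell with MEKi at 72 h by edgeR. The median of the 36 was -0.06 with FGFRi and -0.37 with MEKi at 72 h. Their summed level was 1531 to 1601 CPM in XX and 865 to 1108 CPM in XY DMSO libraries at 72 h.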
